A study of Mus musculus with 15 samples.

Results

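The genes described here are 54 genes of the cell division cycle and of quiescence, measured in endothelial cells (ECs) of the mouse liver. They were chosen by name, with earlier results of these data known. They fall into 22 genes of mitosis, 14 of DNA replication, 8 G1 cyclins and kinases, 4 inhibitors of cyclin-dependent kinases, 4 genes of the E2F and RB group, and 2 genes linked to quiescence. A probe belonged to a gene if the accession in the scanner files mapped to it, which gave 69 of the 55681 probes on the array and 54 of the 21173 genes with a symbol. The study measured total RNA of sorted liver ECs on 15 one-colour microarrays, 3 for each of 5 populations. EC-SP cells were set against EC-MP cells, both from animals of 8 weeks. The labels do not spell out SP and MP. In a second set of arrays 3 subsets of adult liver ECs were set against one another, namely CD157+CD200+ ECs, CD157-CD200+ ECs, and ECs with neither protein (CD157-CD200-). CD157 and CD200 are cell surface proteins, encoded by Bst1 and Cd200. The labels name no transgene, treatment or strain for any group, and call the 3 samples of a group independent without saying whether they were different animals, so p-values measure the spread between these samples.

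A dividing cell passes from G1 through DNA synthesis and G2 to mitosis. Cyclin D with CDK4 or CDK6, and then cyclin E with CDK2, phosphorylate the retinoblastoma protein, which releases E2F factors to transcribe the genes of DNA synthesis. Genes of G2 and mitosis are switched on later, in part through a promoter element called CHR (cell cycle genes homology region) and neighbouring CCAAT boxes, while CDK inhibitors and pocket proteins hold resting cells outside the cycle. Most endothelial cells of an adult, uninjured liver are not dividing.

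Some promoters of the members hold the letters of those elements, and 2 sets are shown because their genes are among those that differed between the sorted populations below. RefSeq windows on the mouse build GRCm38.p6, running from 250 bases before to 50 bases after each annotated start, were at hand for 43 of the 54 members (50 windows). Letters were searched on both strands, as TTTCCCGC, TTTGGCGC, TTTCGCGC or TTTGCCGC for an E2F site, TTTGAA for a CHR and CCAAT for a CCAAT box. An E2F site stood in 6 of 13 windows of DNA replication members (46.2%), in 1 of 18 windows of mitosis members (5.56%) and in 2.26% of all 32851 windows. A CHR stood in 13 of 18 windows of mitosis members (72.2%), in 1 of 13 of DNA replication members (7.69%) and in 17.9% of all windows. A CCAAT box stood in 16 of 18 windows of mitosis members (88.9%), in 9 of 13 of DNA replication members (69.2%) and in 37.4% of all windows. Over all 50 windows of members, 10 held an E2F site, 16 a CHR and 33 a CCAAT box, and the windows of Rgcc and G0s2 held none of these. The windows hold letters only, and a match is not a shown binding site.

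The first set is Mcm7 (chr5:138171834-138172133, minus strand), Cdc6 (chr11:98907901-98908200, plus strand) and Cdt1 (chr8:122567765-122568064, plus strand), the DNA replication members with both an E2F match and a higher level in EC-SP cells. E2F letters stood in 3 of the 6 windows at hand for the DNA replication members that were higher in EC-SP cells. The windows of Pcna and Rrm2, also higher there, held none. Mcm3, Mcm5 and Mcm6 held E2F letters and were not called higher in EC-SP cells. Capitals mark the E2F letters, read on either strand.
Mcm7: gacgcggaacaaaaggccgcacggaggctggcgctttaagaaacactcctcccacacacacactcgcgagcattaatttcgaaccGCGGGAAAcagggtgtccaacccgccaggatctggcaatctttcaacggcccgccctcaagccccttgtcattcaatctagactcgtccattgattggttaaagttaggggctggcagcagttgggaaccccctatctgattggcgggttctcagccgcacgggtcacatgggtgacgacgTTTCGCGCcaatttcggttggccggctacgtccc
Cdc6: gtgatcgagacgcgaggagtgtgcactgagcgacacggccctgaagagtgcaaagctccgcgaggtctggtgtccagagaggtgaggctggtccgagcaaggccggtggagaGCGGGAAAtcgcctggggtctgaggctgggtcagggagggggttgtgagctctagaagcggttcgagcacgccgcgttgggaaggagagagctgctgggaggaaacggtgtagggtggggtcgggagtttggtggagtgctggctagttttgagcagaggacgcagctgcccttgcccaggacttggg
Cdt1: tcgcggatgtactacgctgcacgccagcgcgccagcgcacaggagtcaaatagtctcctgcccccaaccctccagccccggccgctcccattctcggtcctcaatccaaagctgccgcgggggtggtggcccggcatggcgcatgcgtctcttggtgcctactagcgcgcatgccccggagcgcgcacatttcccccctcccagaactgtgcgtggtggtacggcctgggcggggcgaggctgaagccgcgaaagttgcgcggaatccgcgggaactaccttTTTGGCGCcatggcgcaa

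The second set is Mki67 (chr7:135716330-135716629, minus strand), Ccnb2 (chr9:70421505-70421804, minus strand) and Cenpa (chr5:30666636-30666935, plus strand), the mitosis members with both a CHR and a lower level in a CD200+ subset. Of the mitosis members lower in a CD200+ subset 5 had a window, and these are the 3 with a CHR. The windows of Birc5 and Nusap1, also lower there, held no CHR. Aurka, Bub1b, Cdc20, Cdk1, Kif11, Plk1, Prc1 and Top2a held a CHR and were not called lower in a CD200+ subset. Capitals mark TTTGAA and CCAAT, the CCAAT box on either strand.
Mki67: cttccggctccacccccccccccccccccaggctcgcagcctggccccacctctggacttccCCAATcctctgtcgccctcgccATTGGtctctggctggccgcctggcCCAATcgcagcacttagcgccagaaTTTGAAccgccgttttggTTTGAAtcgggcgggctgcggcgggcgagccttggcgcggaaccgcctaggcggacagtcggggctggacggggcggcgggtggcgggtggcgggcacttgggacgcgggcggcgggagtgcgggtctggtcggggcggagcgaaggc
Ccnb2: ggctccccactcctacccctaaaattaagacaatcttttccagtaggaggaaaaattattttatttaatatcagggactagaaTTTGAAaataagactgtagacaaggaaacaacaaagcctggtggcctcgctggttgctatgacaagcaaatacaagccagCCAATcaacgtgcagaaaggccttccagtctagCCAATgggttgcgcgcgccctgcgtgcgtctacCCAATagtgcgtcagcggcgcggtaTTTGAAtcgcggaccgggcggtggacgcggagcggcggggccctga
Cenpa: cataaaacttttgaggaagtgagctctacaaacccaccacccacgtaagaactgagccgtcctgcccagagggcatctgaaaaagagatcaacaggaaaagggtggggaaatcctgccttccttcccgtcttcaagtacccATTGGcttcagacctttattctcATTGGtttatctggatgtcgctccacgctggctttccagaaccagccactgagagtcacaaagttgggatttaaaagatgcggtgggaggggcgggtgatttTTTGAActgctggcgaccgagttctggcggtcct

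A level below is a probe's processed signal divided by the 75th percentile of its own array, on a log2 scale. That percentile ran over 157 to 297 intensity units. Levels of different probes are not compared. Between 57.3% and 69.4% of spots lay above background on an array, no spot was saturated, and arrays of a group correlated at r = 0.953 to 0.969. The labels fitted the sort markers. Bst1 ran over 2.70 to 2.85 in EC-SP cells and -1.82 to -1.14 in EC-MP cells, over 2.45 to 2.77 in CD157+CD200+ ECs, -2.65 to -2.14 in CD157-CD200+ ECs and -3.62 to -2.73 in CD157-CD200- ECs, and Cd200 over 3.99 to 4.32 in EC-SP cells, 0.38 to 1.15 in EC-MP cells, 4.32 to 4.49 in CD157+CD200+ ECs, 3.29 to 3.41 in CD157-CD200+ ECs and -4.56 to -4.27 in CD157-CD200- ECs. All 9 pan-endothelial markers were above background in every group. The summed level of 9 sinusoidal endothelial markers, in multiples of the 75th percentile, was 14.2 to 16.9 in EC-SP cells and 268 to 487 in EC-MP cells, and 68.9 to 92.4 in CD157+CD200+ ECs, 132 to 166 in CD157-CD200+ ECs and 809 to 1100 in CD157-CD200- ECs. 1 array stood apart for these genes. Replicate 3 of the CD157-CD200- ECs was the highest of its 3 arrays for 30 of 46 tested members (65.2%), against 33.4% of all tested features, and counts without it stand beside those with it.

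Many of the mitotic members were dim. Above background on all 3 arrays of the group were 38 of the 54 members in EC-SP cells and 36 in EC-MP cells, and 39 in CD157+CD200+ ECs, 35 in CD157-CD200+ ECs and 46 in CD157-CD200- ECs. A gene was tested if some group had its probe above background on each of the group's 3 arrays, which left 39 members for EC-SP against EC-MP cells and 46 for the 3 subsets. Ccnb1, Aurkb, Bub1, Cdc25c, Cenpf, Ccne2, Cdk6 and E2f8 passed in neither fit, and Cdc25c and Cenpf were above background on 0 of 15 arrays. Cenpe, Kif11, Nusap1, Tpx2, Prc1, Tk1 and Cdkn2a were tested only in the subsets. A member that passed through one group alone had to be higher there, so counts over members above background on every array are given too, for all members and for the mitosis and DNA replication members.

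EC-SP cells had higher levels of the replication licensing genes Cdc6 and Cdt1, of the helicase genes Mcm4, Mcm7 and Gins2, and of Pcna and Rrm2 than EC-MP cells, by 2.17-fold to 6.26-fold. They also had more Mki67, Cdk2, Cdkn1a (p21) and, by 38.1-fold, Rgcc, and less Cdk4. Cdc6 passed the filter through EC-SP cells alone. In sorted cells measured in bulk, a smaller share of cells that express a gene and less RNA per cell cannot be told apart. Of 39 members tested, 11 were higher and 1 was lower in EC-SP cells at an adjusted p under 0.05 (limma, Benjamini-Hochberg over all features tested). Over all 23971 features tested, 9.11% were higher and 7.44% lower. The median difference was 0.35 over the members and -0.01 over all features, or 0.19 and 0.01 with normexp background correction. At an unadjusted p under 0.05, 17 members were higher and 4 lower. Of the 35 members above background on all 6 arrays, 10 were higher and 1 was lower, where 1962 of 21296 features were higher and 1537 lower. With the authors' own scaling of the arrays, which lowers the median difference of all features to -0.17, 11 members were higher and 4 lower. With the replicate number as a block 14 members were higher and 3 lower, the latter Cdk4, Cenpa and Mcm5. The difference had the same sign on each of the 3 slides for all 12 called members. That follows from their groups not overlapping and is no separate check.

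DNA replication was the role with the most calls, 7 higher and 0 lower of 13 tested (limma, with 8 and 1 at an unadjusted p under 0.05), with a median difference of 1.11. Of its 12 members above background on all 6 arrays 6 were higher. Cdt1, which loads the MCM helicase onto origins, had levels of 0.03, -0.26 and 0.32 in EC-SP cells, against -2.64, -2.79 and -2.41 in EC-MP cells. Its difference was 2.65 ± 0.24 (SE, n = 3 arrays each, adjusted p = 0.000201), or 6.26-fold. The 2 groups were far apart, with no overlap. Cdc6, the partner of Cdt1 in licensing, had levels of -1.0, -1.11 and -0.53 in EC-SP cells, against -3.58, -3.63 and -3.15 in EC-MP cells, where it was above background on 2 of 3 arrays. Its difference was 2.57 ± 0.25 (SE, adjusted p = 0.000295), or 5.95-fold. Cdc6 thus passed the filter through EC-SP cells alone, which favours a higher level there. A second Cdc6 probe, above background on no EC-SP array, gave -0.68. The other members called in this role act at the fork or supply its nucleotides.

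Gins2, part of the GINS complex of the active helicase, had levels of -0.37, -0.84 and -0.39 in EC-SP cells, against -2.21, -1.97 and -2.74 in EC-MP cells, a difference of 1.77 ± 0.27 (SE, adjusted p = 0.00267). Mcm7, a subunit of the MCM helicase, had levels of 3.05, 2.71 and 3.24 in EC-SP cells, against 1.73, 1.28 and 0.97 in EC-MP cells, a difference of 1.67 ± 0.27 (SE, adjusted p = 0.00337). The E2F letters in its promoter are printed above. Pcna, the sliding clamp of the DNA polymerases, had levels of 4.85, 4.65 and 4.79 in EC-SP cells, against 3.62, 3.47 and 2.90 in EC-MP cells, a difference of 1.43 ± 0.25 (SE, adjusted p = 0.00521). Rrm2, the inducible small subunit of ribonucleotide reductase, which makes deoxynucleotides, had levels of -0.62, -0.60 and -0.70 in EC-SP cells, against -1.56, -2.03 and -2.57 in EC-MP cells, a difference of 1.41 ± 0.28 (SE, adjusted p = 0.00931). All 3 EC-SP arrays lay above all 3 EC-MP arrays for each of these genes. Mcm4, another helicase subunit, had levels of 3.85, 3.67 and 4.53 in EC-SP cells, against 2.94, 3.00 and 2.78 in EC-MP cells, a difference of 1.11 ± 0.27 (SE, adjusted p = 0.0223). That call ended in 4 of the 6 fits that left out 1 array, with an adjusted p of up to 0.0623 without EC-MP replicate 3.

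The helicase subunits did not move as one. Mcm2, Mcm3 and Mcm6 had differences of 0.16, 0.10 and 0.02 in EC-SP against EC-MP cells, none of which passed the test. Mcm5 had a difference of -0.62 (adjusted p = 0.0734), which passed with the replicate number, and so the slide, as a block (adjusted p = 0.0459). Rrm1, the large subunit of ribonucleotide reductase, had a difference of 0.67 (adjusted p = 0.126, and 0.0347 with the block), and Tyms, thymidylate synthase, had 0.11. Tk1, thymidine kinase of the salvage pathway, was above background on 2 EC-SP arrays and 1 EC-MP array and was not tested.

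Among mitosis members 1 was higher and 0 were lower of 12 tested (limma, with 4 and 1 at an unadjusted p under 0.05), with a median difference of 0.33. Of the 10 above background on all 6 arrays 1 was higher. Mki67, the chromosome coat protein used as a proliferation marker, had levels of -1.37, -1.16 and -0.43 in EC-SP cells, against -2.31, -2.80 and -2.13 in EC-MP cells. Its difference was 1.42 ± 0.31 (SE, adjusted p = 0.014), or 2.68-fold, its second probe gave 1.67, and the call ended without EC-MP replicate 2 (adjusted p = 0.0567). The groups did not overlap. Top2a, the topoisomerase that untangles sister chromatids, had levels of -2.30, -2.95 and -2.0 in EC-SP cells, against -2.55, -2.45 and -1.20 in EC-MP cells. These overlap, and the difference of -0.35 ± 0.40 (SE, adjusted p = 0.625) did not pass. Aurka, a kinase of the spindle poles, had a difference of 1.73 (adjusted p = 0.0832, and 0.0294 with the block), and Cenpa, the histone H3 variant of centromeres, had -0.84 (adjusted p = 0.0946, and 0.0191 with the block). Birc5, survivin of the chromosomal passenger complex, had 1.53 (adjusted p = 0.0949), while its other probes gave 0.71 and -0.47, the last above background on 0 of the 6 arrays. Ccna2, Kif20a, Ccnb2, Bub1b, Cdk1, Cdc20 and Plk1 had differences between -0.20 and 1.05, and none passed.

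Of 6 G1 cyclins and kinases tested, 1 was higher and 1 lower. Cdk2, the kinase partner of cyclins E and A, had levels of 1.18, 0.92 and 1.15 in EC-SP cells, against -0.26, -0.20 and 0.24 in EC-MP cells, a difference of 1.16 ± 0.23 (SE, adjusted p = 0.00969). Cdk4, the kinase partner of the D cyclins, had levels of 3.55, 2.99 and 2.75 in EC-SP cells, against 4.06, 4.02 and 3.88 in EC-MP cells, a difference of -0.89 ± 0.26 (SE, adjusted p = 0.0444). Neither pair of groups overlapped, and the 3 Cdk4 probes gave -0.85 to -0.95. The Cdk4 call ended in 5 of 6 fits that left out 1 array, with an adjusted p of up to 0.127 without EC-MP replicate 1, under the test of all probes with no filter, and with the mean of the gene's probes. The D cyclins Ccnd1, Ccnd2 and Ccnd3 had differences of -0.30, -0.28 and -0.56, none of which passed. Ccne1, cyclin E1, had 0.30 with the probe used and 2.0 with its second probe.

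Cdkn1a, which encodes the CDK inhibitor p21, a target of p53, had levels of 3.19, 3.31 and 4.19 in EC-SP cells, against 1.49, 0.73 and 2.45 in EC-MP cells. Its difference was 2.01 ± 0.44 (SE, adjusted p = 0.015), or 4.03-fold, and the groups did not overlap. The second Cdkn1a probe, above background on all 6 arrays, gave -0.96, and the mean of both probes did not pass (adjusted p = 0.218), so the result holds for 1 probe. Cdkn1b, which encodes p27, had levels of 3.06, 3.08 and 2.82 in EC-SP cells, against 2.60, 2.41 and 2.14 in EC-MP cells. These groups did not overlap, but the difference of 0.60 ± 0.22 (SE, adjusted p = 0.107) did not pass. With the block it passed, just under the threshold (adjusted p = 0.05 when rounded). Cdkn2c, which encodes p18, had -0.17, and in the E2F and RB group E2f1, Rb1 and E2f2 had 0.41, 0.78 and -0.85, none of which passed.

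Rgcc, named regulator of cell cycle and known from human endothelial cells as a brake on their proliferation, differed more than any other member between EC-SP and EC-MP cells. Its levels were 2.59, 2.27 and 2.53 in EC-SP cells, against -3.35, -2.42 and -2.6 in EC-MP cells. The difference was 5.25 ± 0.28 (SE, adjusted p = 2.41e-05), or 38.1-fold, and it ran from 4.69 to 5.95 within slides. The groups stood far apart. G0s2, first described as a gene of the G0 to G1 switch and an inhibitor of the lipase ATGL, had levels of -1.95, -1.85 and -2.59 in EC-SP cells, against -2.36, -1.89 and -2.62 in EC-MP cells. Its arrays overlapped, and its difference of 0.16 ± 0.29 (SE, adjusted p = 0.781) did not pass.

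**Figure D1:**
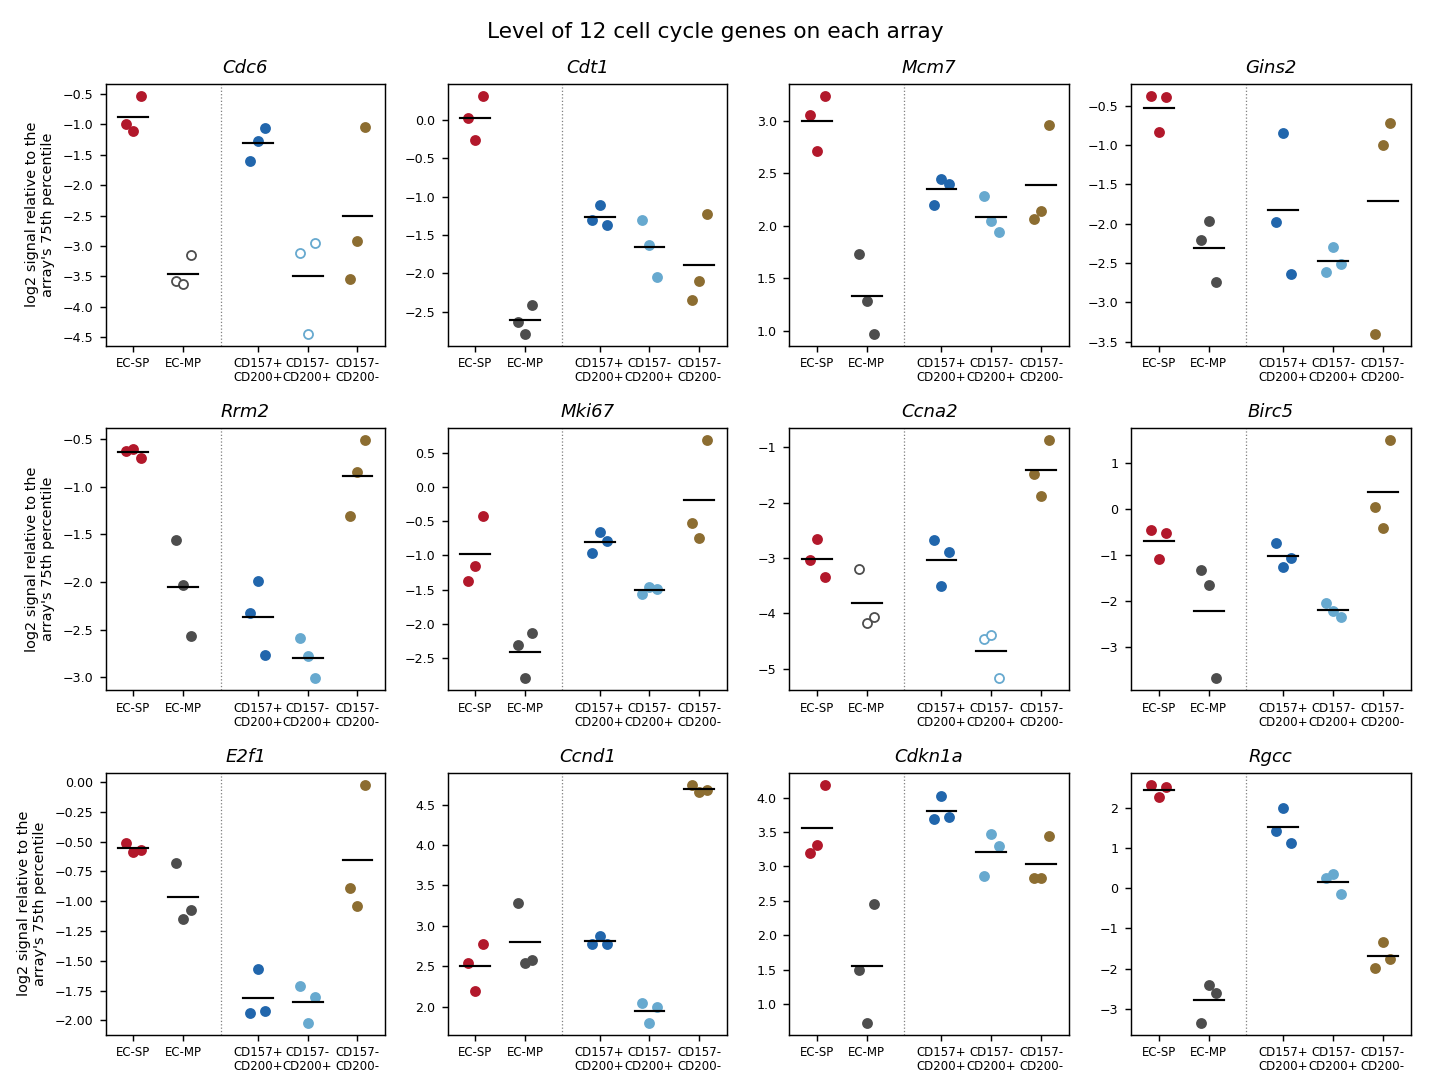
Levels (log2 signal relative to the 75th percentile of the array) of 12 members on each of the 15 arrays, with a bar at the mean of each group and open points where the group was not above background on all 3 arrays, in the order EC-SP, EC-MP, CD157+CD200+, CD157-CD200+ and CD157-CD200-. Rgcc lies between 2.27 and 2.59 in EC-SP cells and between -3.35 and -2.42 in EC-MP cells.

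The members called only among the subsets had these levels in the first sort. Ccnd1 had 2.54, 2.19 and 2.77 in EC-SP cells, against 3.28, 2.54 and 2.58 in EC-MP cells. E2f1 had -0.51, -0.59 and -0.57 in EC-SP cells, against -0.68, -1.15 and -1.07 in EC-MP cells. The Ccnd1 arrays overlapped, and all EC-SP arrays lay above the EC-MP arrays for E2f1, a difference that did not pass. Mcm3 had 1.57, 1.45 and 2.18 in EC-SP cells, against 1.72, 1.48 and 1.70 in EC-MP cells. Mcm5 had -1.23, -1.27 and -1.32 in EC-SP cells, against -0.53, -0.79 and -0.64 in EC-MP cells. Cenpa had -0.14, -0.83 and -0.89 in EC-SP cells, against 0.69, 0.05 and -0.08 in EC-MP cells. Mcm3 overlapped, while Mcm5 and Cenpa were lower on every EC-SP array than on any EC-MP array. Ccna2 had -3.04, -2.65 and -3.35 in EC-SP cells, against -3.19, -4.17 and -4.06 in EC-MP cells. Ccnb2 had -2.52, -2.06 and -1.62 in EC-SP cells, against -2.65, -2.28 and -2.33 in EC-MP cells. Birc5 had -0.44, -1.08 and -0.52 in EC-SP cells, against -1.32, -1.64 and -3.68 in EC-MP cells. The first 2 of these overlapped, and Birc5 was higher on all EC-SP arrays, with EC-MP replicate 3 far below the other arrays. Kif20a had -2.09, -0.92 and -2.41 in EC-SP cells, against -1.99, -3.16 and -3.44 in EC-MP cells. Tpx2 had -2.11, -5.77 and -2.32 in EC-SP cells, against -4.86, -4.86 and -5.29 in EC-MP cells. Nusap1 had -3.41, -2.48 and -3.33 in EC-SP cells, against -3.79, -4.16 and -3.55 in EC-MP cells. Kif20a and Tpx2 overlapped, and Tpx2 was above background on 2 EC-SP arrays and 0 EC-MP arrays. Tk1 had -2.85, -3.80 and -3.48 in EC-SP cells, against -5.50, -5.78 and -3.69 in EC-MP cells. Cdkn2a had -3.31, -4.63 and -3.06 in EC-SP cells, against -3.01, -3.68 and -3.24 in EC-MP cells. Both overlapped, and both lay near background in the first sort.

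Markers of other cell types differed in this comparison too, in both directions. The summed level of 9 cholangiocyte markers was 12.2 to 15.1 in EC-SP cells and 4.83 to 5.20 in EC-MP cells, with 6 of 9 tested higher in EC-SP cells, and that of 10 stellate and mesenchymal markers 8.46 to 14.1 in EC-SP cells and 2.72 to 4.03 in EC-MP cells, with 1 higher and 2 lower of 9 tested. The stellate and mesenchymal sum in EC-SP cells rested mostly on Rgs5, with mean levels of 2.85 in EC-SP and -0.90 in EC-MP cells. Dcn, Lrat and Reln had lower means in EC-SP cells. Lrat had -5.46 against -1.95 and Reln -5.32 against -1.79, both above background on no EC-SP array. Kupffer cell markers had 2 of 6 tested lower (median difference -0.98), and hepatocyte markers had 3 higher and 2 lower of 9. For 11 leukocyte markers the summed level was 5.82 to 6.09 in EC-SP cells and 6.28 to 6.77 in EC-MP cells, with 5 and 4 of them, among these Ms4a1, above background on none of the group's arrays. Erythroid markers, of which 7 of 8 were on the array, summed to 8.95 to 14.9 in EC-SP cells and 13.2 to 15.3 in EC-MP cells. The part of these cells in the members' differences was not tested.

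Further cell cycle genes that are no members gave a mixed picture between EC-SP and EC-MP cells. Of 40 other mitosis genes 23 were tested, 6 were higher and 0 lower (limma, with 8 and 1 at an unadjusted p under 0.05), with a median difference of 0.46. They included the central spindle kinesin Kif23 (2.80, adjusted p = 0.00151), the CDK-binding protein Cks2 (2.22, adjusted p = 0.000945) and the kinetochore protein Spc24 (2.18, adjusted p = 0.0131). Of 37 other replication genes 29 were tested, and 1 was higher and 2 were lower, with a median of -0.12. The GINS subunit Gins3 had 0.94 (adjusted p = 0.0211), the single-strand binding protein Rpa1 had -1.73 (adjusted p = 0.0173) and the primase partner Pola2 had -1.01 (adjusted p = 0.0372). Among other inhibitors, pocket proteins and MuvB subunits 1 of 13 was called by limma, the lower Cdkn2b, which encodes p15 (-1.50, adjusted p = 0.044). Of 5 other E2F and DP factors tested with limma 0 passed, and 0 had an unadjusted p under 0.05. Of 18 p53 and checkpoint genes 6 were higher and 1 lower, with a median of 0.72, and Trp53, which encodes p53, had 1.35 (adjusted p = 0.00231), the stress gene Gadd45a 1.40 (adjusted p = 0.00276) and the mitotic inhibitor kinase Wee1 1.73 (adjusted p = 0.00628). Of 19 other cyclins and CDKs tested 4 were higher and 2 lower, with Cdk18 at -2.11 (adjusted p = 0.00561), Cdk19 at 1.34 (adjusted p = 0.0105) and the CDK-activating kinase Cdk7 at -1.12 (adjusted p = 0.0264). Of 14 growth arrest and quiescence factors tested 4 were higher and 2 lower, with the antiproliferative genes Btg1 at 2.46 (adjusted p = 0.000177) and Tob1 at 1.72 (adjusted p = 0.000996), and the venous factor Nr2f2 at -1.48 (adjusted p = 0.00289).

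**Figure D2:**
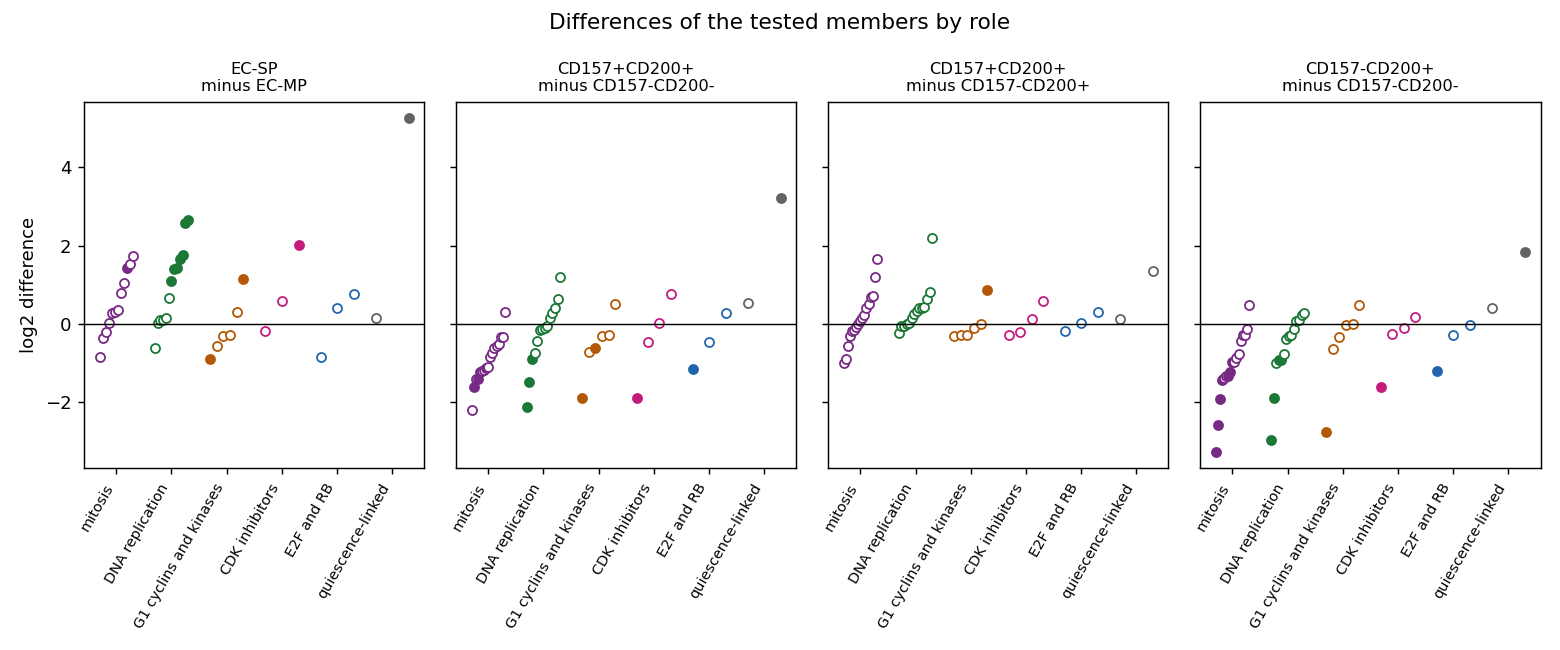
Difference in level (log2, vertical axis) of each tested member by role (horizontal axis) in the 4 pairwise comparisons, 1 panel each, with filled points for members at an adjusted p under 0.05. DNA replication members lie mostly above 0 for EC-SP minus EC-MP, with a median of 1.11, and mitosis members mostly below 0 against CD157-CD200- ECs, with medians of -1.10 in CD157+CD200+ ECs and -0.98 in CD157-CD200+ ECs (-0.28 and -0.43 with normexp).

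Between the CD200+ subsets and CD157-CD200- ECs the members were mostly lower in the CD200+ cells. Cyclin D1 (Ccnd1), cyclin A2 (Ccna2), Tk1, Rrm2, Mcm3, E2f1, Cdkn2a and several spindle genes were lower in at least 1 CD200+ subset, by 1.84-fold to 6.74-fold in the calls with both groups above background on all their arrays, and Rgcc was higher. Cdk4 was 1.53-fold lower in CD157+CD200+ ECs. Tk1 and Cdkn2a passed the filter through CD157-CD200- ECs alone. Of 46 members tested, 1 was higher and 11 were lower in CD157+CD200+ than in CD157-CD200- ECs, where 8.09% and 7.11% of all 23701 features were higher and lower, and the median difference was -0.49 over the members and 0.01 over all features. Of the same 46, 1 was higher and 14 were lower in CD157-CD200+ than in CD157-CD200- ECs, where 6.31% and 5.54% of all features were higher and lower, and the medians were -0.40 and 0.02. At an unadjusted p under 0.05, 2 were higher and 20 lower in CD157+CD200+ ECs, and 2 were higher and 17 lower in CD157-CD200+ ECs. Both comparisons use the same 3 CD157-CD200- arrays. All 46 tested members were above background on all 3 CD157-CD200- arrays, and 34 of them on all 9 arrays. Of these 34, 1 was higher and 8 were lower in CD157+CD200+ ECs, where 1373 of 20445 features were higher and 1468 lower. In CD157-CD200+ ECs 1 was higher and 9 were lower, where 1040 of these features were higher and 1157 lower. Without CD157-CD200- replicate 3, 4 members were higher and 7 lower in CD157+CD200+ ECs, where Cdc6, Cdkn1a and Cdt1 joined the higher ones, and 1 was higher and 10 were lower in CD157-CD200+ ECs. The median over the members was then -0.36 and -0.35. Of the 12 calls for CD157+CD200+ ECs 8 were kept, and of the 15 calls for CD157-CD200+ ECs 11 were kept. With the replicate block 21 members were called for CD157+CD200+ ECs and 17 for CD157-CD200+ ECs, and no call was lost. For every called member the difference had 1 sign on all 3 slides, which again follows from groups that did not overlap.

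Of 17 mitosis members tested, 0 were higher and 4 were lower in CD157+CD200+ ECs (median difference -1.10), and 0 were higher and 7 were lower in CD157-CD200+ ECs (median -0.98), each against CD157-CD200- ECs (limma, with 0 and 10, and with 1 and 10, at an unadjusted p under 0.05). With normexp these medians were -0.28 and -0.43, and the median over all members was -0.24 and -0.25. All 17 passed the filter through CD157-CD200- ECs, and of the 9 above background on all 9 arrays 0 were higher and 3 lower in CD157+CD200+ ECs (median -0.62) and 0 were higher and 4 lower in CD157-CD200+ ECs (median -0.97). Without CD157-CD200- replicate 3, 2 and 5 of the 17 were lower. Ccna2, the cyclin of S phase and G2, had levels of -2.67, -3.51 and -2.90 in CD157+CD200+ ECs and -4.47, -4.39 and -5.17 in CD157-CD200+ ECs, against -1.48, -1.88 and -0.87 in CD157-CD200- ECs. The 3 groups did not overlap, and Ccna2 was above background on 0 of the 3 CD157-CD200+ arrays. The difference from CD157-CD200- ECs was -1.61 ± 0.33 (SE, adjusted p = 0.00852) in CD157+CD200+ ECs. In CD157-CD200+ ECs Ccna2 was at least 6.56-fold lower (adjusted p = 0.000144), where the bound sets each dim array at the lowest signal called above background or at its own signal if higher. Cenpa had levels of -0.13, -0.16 and -0.40 in CD157+CD200+ ECs and -0.14, -0.60 and -0.62 in CD157-CD200+ ECs, against 1.18, 0.69 and 1.08 in CD157-CD200- ECs. Its differences were -1.22 ± 0.21 (SE, adjusted p = 0.00315) and -1.44 ± 0.21 (SE, adjusted p = 0.00139). The CD200+ subsets overlapped each other and lay below CD157-CD200- ECs.

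Tpx2, which nucleates spindle microtubules, had levels of -3.08, -3.08 and -3.01 in CD157+CD200+ ECs and -3.74, -4.39 and -2.6 in CD157-CD200+ ECs, against -1.93, -1.77 and -1.27 in CD157-CD200- ECs. Its differences were -1.40 ± 0.39 (SE, adjusted p = 0.0399) and -1.92 ± 0.39 (SE, adjusted p = 0.0105), and the first call ended in 7 of 9 fits that left out 1 array (adjusted p up to 0.116, without CD157-CD200- replicate 3). Kif20a, a kinesin of cytokinesis, had levels of -2.19, -1.18 and -2.17 in CD157+CD200+ ECs and -1.94, -1.58 and -1.57 in CD157-CD200+ ECs, against -0.94, -1.0 and -0.24 in CD157-CD200- ECs. CD157-CD200- ECs were highest without overlap for both genes. Kif20a had a difference of -1.12 ± 0.32 (SE, adjusted p = 0.0406) in CD157+CD200+ ECs, a call that ended in 8 of 9 such fits (adjusted p up to 0.15, without CD157+CD200+ replicate 1), and -0.97 ± 0.32 (SE, adjusted p = 0.0871) in CD157-CD200+ ECs, which did not pass.

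Birc5 had levels of -0.73, -1.26 and -1.05 in CD157+CD200+ ECs and -2.05, -2.21 and -2.34 in CD157-CD200+ ECs, against 0.06, -0.41 and 1.51 in CD157-CD200- ECs. The 3 groups did not overlap. Its difference was -1.40 ± 0.42 (SE, adjusted p = 0.0517, and 0.0429 with the block) in CD157+CD200+ ECs and -2.59 ± 0.42 (SE, adjusted p = 0.00266), or 6.01-fold lower, in CD157-CD200+ ECs. Mki67 had levels of -0.97, -0.66 and -0.79 in CD157+CD200+ ECs and -1.57, -1.47 and -1.49 in CD157-CD200+ ECs, against -0.52, -0.74 and 0.69 in CD157-CD200- ECs. CD157+CD200+ ECs overlapped CD157-CD200- ECs and CD157-CD200+ ECs did not. The Mki67 difference was -0.62 ± 0.33 (SE, adjusted p = 0.279) in CD157+CD200+ ECs, which did not pass, and -1.32 ± 0.33 (SE, adjusted p = 0.0279) in CD157-CD200+ ECs, which ended without any 1 of the CD157-CD200+ arrays (adjusted p up to 0.0954, without replicate 1).

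Ccnb2, cyclin B2, had levels of -2.21, -1.78 and -2.59 in CD157+CD200+ ECs and -2.68, -2.25 and -2.89 in CD157-CD200+ ECs, against -1.77, -1.38 and -1.72 in CD157-CD200- ECs. Its difference in CD157-CD200+ ECs was -0.98 ± 0.26 (SE, adjusted p = 0.0347), which ended in 6 of 9 fits that left out 1 array (adjusted p up to 0.128), and its difference in CD157+CD200+ ECs was -0.57 (adjusted p = 0.194, and 0.0148 with the block). Nusap1, a spindle microtubule protein, had levels of -2.41, -3.32 and -3.36 in CD157+CD200+ ECs and -3.68, -3.37 and -4.18 in CD157-CD200+ ECs, against -2.58, -2.72 and -2.24 in CD157-CD200- ECs. For both genes the arrays of CD157-CD200+ ECs lay below all 3 arrays of CD157-CD200- ECs, and CD157+CD200+ ECs lay between or across them. The Nusap1 difference in CD157-CD200+ ECs was -1.23 ± 0.31 (SE, adjusted p = 0.0275), which ended in 4 of 9 such fits (adjusted p up to 0.102), both it and the Ccnb2 call most so without CD157-CD200+ replicate 3. Top2a had levels of -4.35, -2.98 and -2.35 in CD157+CD200+ ECs and -2.14, -2.37 and -2.20 in CD157-CD200+ ECs, against -2.44, -2.09 and -1.84 in CD157-CD200- ECs, and its differences of -1.10 ± 0.43 and -0.12 ± 0.43 (SE, adjusted p = 0.128 and 0.947) did not pass.

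Several dim spindle genes passed with the block but not without it. In CD157+CD200+ ECs these were the checkpoint kinase relative Bub1b (-1.20, adjusted p = 0.101, and 0.00684 with the block), the kinesin Kif11 (-2.20, adjusted p = 0.0538, and 0.032 with the block) and the kinetochore motor Cenpe (-1.18, adjusted p = 0.0982, and 0.0322 with the block), and in CD157-CD200+ ECs Bub1b again (-1.37, adjusted p = 0.0792, and 0.00483 with the block). Kif11 passed with quantile normalization too, Bub1b in CD157-CD200+ ECs with normexp and with quantile normalization, and Cenpe without CD157+CD200+ replicate 2. Bub1b and Cenpe were above background on 2 of 3 arrays in each CD200+ subset, and Kif11 on 1 of 3. All of them passed the filter through CD157-CD200- ECs alone, so the filter favoured their lower direction in the CD200+ subsets. Cdc20, the activator of the anaphase-promoting complex, was the 1 mitosis member of the 17 with positive differences, 0.32 and 0.49, which did not pass.

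Of 14 DNA replication members tested, 0 were higher and 3 were lower in CD157+CD200+ ECs (median difference -0.11) and 0 were higher and 4 were lower in CD157-CD200+ ECs (median -0.34), with limma and, at an unadjusted p under 0.05, 0 higher and 4 lower in each. Of the 12 above background on all 9 arrays, 2 and 3 were lower. Without CD157-CD200- replicate 3, 2 were higher and 2 lower in CD157+CD200+ ECs (median 0.13), and 3 were lower in CD157-CD200+ ECs (median -0.11). Rrm2 had levels of -2.33, -1.99 and -2.77 in CD157+CD200+ ECs and -2.59, -2.78 and -3.01 in CD157-CD200+ ECs, against -1.31, -0.85 and -0.51 in CD157-CD200- ECs. Its differences were -1.48 ± 0.27 (SE, adjusted p = 0.00422) and -1.90 ± 0.27 (SE, adjusted p = 0.00111), or 2.78-fold and 3.74-fold lower. Tk1 had levels of -4.42, -3.67 and -4.61 in CD157+CD200+ ECs and -4.30, -5.69 and -5.21 in CD157-CD200+ ECs, against -2.04, -3.13 and -1.16 in CD157-CD200- ECs. For both genes the CD200+ subsets overlapped each other and lay below CD157-CD200- ECs. Tk1 was above background on 1 CD157+CD200+ array and 0 CD157-CD200+ arrays. Tk1 thus passed the filter through CD157-CD200- ECs alone, which favours a lower level in the CD200+ subsets. Its difference in CD157+CD200+ ECs was -2.12 ± 0.51 (SE, adjusted p = 0.0201), which ended in 4 of 9 fits that left out 1 array (adjusted p up to 0.0735, without CD157+CD200+ replicate 1). In CD157-CD200+ ECs Tk1 was at least 4.05-fold lower (adjusted p = 0.00407).

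Mcm3 had levels of 2.01, 1.85 and 1.94 in CD157+CD200+ ECs and 2.03, 1.88 and 1.81 in CD157-CD200+ ECs, against 2.93, 2.61 and 2.91 in CD157-CD200- ECs. Its differences were -0.88 ± 0.17 (SE, adjusted p = 0.00563) and -0.91 ± 0.17 (SE, adjusted p = 0.00568). Mcm5 had levels of -0.63, -0.49 and -0.50 in CD157+CD200+ ECs and -0.62, -0.56 and -0.93 in CD157-CD200+ ECs, against 0.00, -0.09 and 0.71 in CD157-CD200- ECs. Both helicase genes were alike in the CD200+ subsets in that their arrays overlapped. Mcm5 had differences of -0.75 ± 0.23 (SE, adjusted p = 0.0594, and 0.049 with the block) and -0.91 ± 0.23 (SE, adjusted p = 0.0309), and the second call ended in 6 of 9 fits that left out 1 array (adjusted p up to 0.115, without CD157-CD200+ replicate 3). The replication members that were higher in EC-SP cells, apart from Rrm2, did not pass here with all 9 arrays. Cdc6 had levels of -1.60, -1.27 and -1.06 in CD157+CD200+ ECs and -3.11, -4.44 and -2.95 in CD157-CD200+ ECs, against -3.54, -2.91 and -1.05 in CD157-CD200- ECs, whose arrays overlapped both CD200+ subsets. Cdt1 had levels of -1.30, -1.11 and -1.37 in CD157+CD200+ ECs and -1.30, -1.63 and -2.05 in CD157-CD200+ ECs, against -2.35, -2.10 and -1.23 in CD157-CD200- ECs, and its differences were 0.63 (adjusted p = 0.227) and 0.23 (adjusted p = 0.79).

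Pcna had levels of 3.85, 3.57 and 4.08 in CD157+CD200+ ECs and 3.48, 3.25 and 3.52 in CD157-CD200+ ECs, against 3.57, 3.33 and 4.16 in CD157-CD200- ECs. Mcm7 had levels of 2.20, 2.44 and 2.40 in CD157+CD200+ ECs and 2.28, 2.04 and 1.94 in CD157-CD200+ ECs, against 2.06, 2.14 and 2.96 in CD157-CD200- ECs. Mcm4 had levels of 4.0, 4.30 and 3.95 in CD157+CD200+ ECs and 3.60, 3.99 and 3.65 in CD157-CD200+ ECs, against 3.55, 3.53 and 3.93 in CD157-CD200- ECs. The arrays of CD157-CD200- ECs overlapped both CD200+ subsets for Pcna and Mcm7, and for Mcm4 they lay below CD157+CD200+ ECs and overlapped CD157-CD200+ ECs. Gins2 had levels of -1.98, -0.85 and -2.64 in CD157+CD200+ ECs and -2.62, -2.30 and -2.51 in CD157-CD200+ ECs, against -3.40, -1.0 and -0.72 in CD157-CD200- ECs, the widest spread of the 4 genes.

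Ccnd1, which encodes cyclin D1, the mitogen-induced partner of CDK4 and CDK6, had levels of 2.78, 2.88 and 2.78 in CD157+CD200+ ECs and 2.05, 1.80 and 1.99 in CD157-CD200+ ECs, against 4.75, 4.66 and 4.68 in CD157-CD200- ECs. Its differences were -1.88 ± 0.15 (SE, adjusted p = 2.73e-05) and -2.75 ± 0.15 (SE, adjusted p = 3.31e-06), or 3.69-fold and 6.74-fold lower. The 3 subsets were separate from one another, and within slides the differences ran from -1.97 to -1.77 and from -2.86 to -2.69. Cdk4 had levels of 3.72, 3.60 and 3.53 in CD157+CD200+ ECs and 4.16, 3.82 and 3.74 in CD157-CD200+ ECs, against 4.37, 4.26 and 4.08 in CD157-CD200- ECs. CD157+CD200+ ECs lay below both other subsets. The Cdk4 difference was -0.62 ± 0.18 (SE, adjusted p = 0.0466) in CD157+CD200+ ECs, and each of the 9 fits that left out 1 array ended that call (adjusted p from 0.0528 to 0.148). It was -0.33 (adjusted p = 0.35) in CD157-CD200+ ECs. Cdk2 had levels of 0.26, -0.09 and 0.10 in CD157+CD200+ ECs and 0.15, 0.10 and -0.01 in CD157-CD200+ ECs, against -0.31, -0.95 and 0.04 in CD157-CD200- ECs, and did not pass. Ccnd3 had differences of -0.72 and -0.63 (adjusted p = 0.136 and 0.236), which passed with the block (adjusted p = 0.00371 and 0.00766). Ccnd2 had -0.29 and 0.00, and Ccne1 -0.31 and -0.03, or -1.70 and -0.19 with its second probe.

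Cdkn2a, whose transcripts encode the CDK4 and CDK6 inhibitor p16 and the p53 activator p19ARF, had levels of -5.48, -3.81 and -3.74 in CD157+CD200+ ECs and -4.37, -4.03 and -3.78 in CD157-CD200+ ECs, against -2.79, -2.23 and -2.32 in CD157-CD200- ECs. It was above background on 2 CD157+CD200+ arrays and 1 CD157-CD200+ array. Cdkn2a thus passed the filter through CD157-CD200- ECs alone, which favours a lower level in the CD200+ subsets. A second Cdkn2a probe, above background on 0 arrays of each group, gave -0.13 in each CD200+ subset. Its differences were -1.90 ± 0.43 (SE, adjusted p = 0.014) and -1.61 ± 0.43 (SE, adjusted p = 0.0368), and the second call ended in 6 of 9 fits that left out 1 array (adjusted p up to 0.135, without CD157-CD200+ replicate 1). Cdkn1a had levels of 3.69, 4.02 and 3.72 in CD157+CD200+ ECs and 2.86, 3.47 and 3.30 in CD157-CD200+ ECs, against 2.83, 2.83 and 3.44 in CD157-CD200- ECs. CD157+CD200+ ECs lay above both other subsets with this probe, while the second probe gave -1.73 and -1.42. The Cdkn1a differences were 0.78 ± 0.24 (SE, adjusted p = 0.0571, and 0.0251 with the block) and 0.18 ± 0.24 (SE, adjusted p = 0.795). Cdkn1b had levels of 3.43, 3.30 and 2.55 in CD157+CD200+ ECs and 3.40, 3.06 and 2.48 in CD157-CD200+ ECs, against 3.40, 3.28 and 2.52 in CD157-CD200- ECs, so that the 3 groups overlapped and replicate 3 was lowest in each. Cdkn2c had -0.45 in CD157+CD200+ ECs (adjusted p = 0.172, and 0.0252 with the block).

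E2f1, an activator of replication genes, had levels of -1.94, -1.57 and -1.92 in CD157+CD200+ ECs and -1.71, -2.02 and -1.80 in CD157-CD200+ ECs, against -0.89, -1.04 and -0.02 in CD157-CD200- ECs. The CD200+ subsets overlapped and lay below CD157-CD200- ECs. Its differences were -1.16 ± 0.27 (SE, adjusted p = 0.0171) and -1.19 ± 0.27 (SE, adjusted p = 0.0179), and each call ended in 2 of 9 fits that left out 1 array (adjusted p up to 0.0695, without CD157+CD200+ replicate 1, and up to 0.0713, without CD157-CD200+ replicate 2). Rgcc had levels of 1.44, 2.0 and 1.12 in CD157+CD200+ ECs and 0.26, 0.37 and -0.14 in CD157-CD200+ ECs, against -1.98, -1.34 and -1.75 in CD157-CD200- ECs. The subsets formed 3 separate steps. The differences were 3.21 ± 0.27 (SE, adjusted p = 3.23e-05), or 9.26-fold, and 1.85 ± 0.27 (SE, adjusted p = 0.00144), or 3.61-fold. G0s2 had levels of -2.28, -1.41 and -1.59 in CD157+CD200+ ECs and -1.54, -1.53 and -2.63 in CD157-CD200+ ECs, against -2.29, -1.79 and -2.86 in CD157-CD200- ECs, which overlapped and did not pass.

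**Figure D3:**
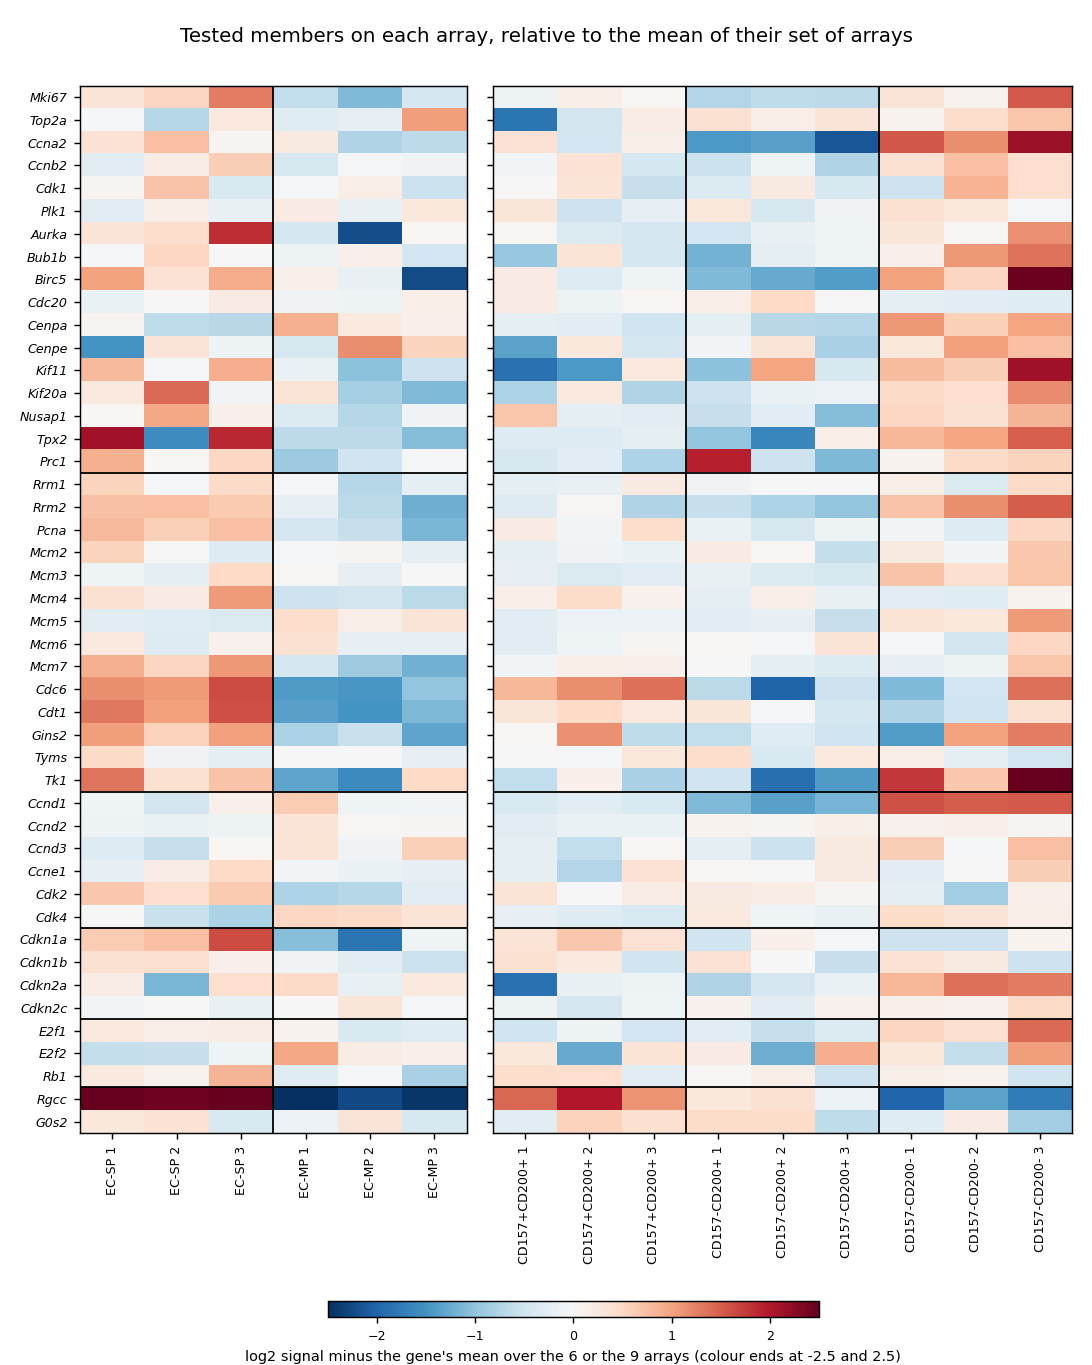
Level of each tested member on each of the 15 arrays relative to that gene's mean over the arrays of the same set (log2, colour scale), with genes in rows by role and arrays in columns by group. In the subsets the CD157-CD200- columns are red, above the mean, for most mitosis members, and replicate 3 was the highest of that group's arrays for 30 of 46 members.

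CD157+CD200+ and CD157-CD200+ ECs differed in few members. Of 46 tested, 1 was higher and 0 were lower (limma, with 7 and 1 at an unadjusted p under 0.05), where 0.802% and 0.245% of all features were higher and lower, and the medians were 0.11 over the members and -0.01 over all features. Ccnd1 was that gene, with 0.87 ± 0.15 (SE, adjusted p = 0.031), and its call ended in 8 of 9 fits that left out 1 array (adjusted p up to 0.155, without CD157-CD200+ replicate 2). Among the 34 members above background on all 9 arrays Ccnd1 was again the 1 called, where 118 of 20445 features were higher and 42 lower. The Rgcc difference of 1.36 ± 0.27 (SE, adjusted p = 0.0562) passed with the block (adjusted p = 0.0112). Ccna2, above background on no CD157-CD200+ array, had a bound of at least 2.14-fold in favour of CD157+CD200+ ECs (adjusted p = 0.0571), and Cdc6 had a difference of 2.19 ± 0.60 (SE, adjusted p = 0.193), without overlap of the groups for either gene, and neither passed. Without CD157-CD200- replicate 3, 3 members were higher, Birc5, Ccna2 and Cdc6, and Ccnd1 was not called. Over the 3 subsets together, the F test of limma called 12 of 46 members, against 13.9% of all features, and they were Ccna2, Birc5, Cenpa, Tpx2, Rrm2, Mcm3, Mcm5, Tk1, Ccnd1, Cdkn2a, E2f1 and Rgcc. Of the 34 above background on all 9 arrays it called 8, and of all features under that filter 2600 of 20445. Without CD157-CD200- replicate 3 it called 11 of 46.

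Markers of other cell types differed among the subsets too. Hepatocyte, Kupffer cell and erythroid markers were higher in CD157-CD200- ECs, and stellate and mesenchymal markers summed to more in the CD200+ subsets, mostly through Rgs5. The summed level of 11 hepatocyte markers was 11.5 to 15.3 in CD157+CD200+ ECs and 10.7 to 12.3 in CD157-CD200+ ECs, against 39.0 to 43.8 in CD157-CD200- ECs, with 8 and 9 of 9 tested lower in the CD200+ subsets. For 9 Kupffer cell markers it was 25.0 to 29.6 in CD157+CD200+ ECs and 24.5 to 35.3 in CD157-CD200+ ECs, against 35.9 to 51 in CD157-CD200- ECs, with 5 and 4 of 8 tested lower. Erythroid markers summed to 9.46 to 9.67 in CD157+CD200+ ECs and 10.4 to 11 in CD157-CD200+ ECs, against 20.8 to 29.6 in CD157-CD200- ECs, with 3 of 5 tested lower in each. For leukocyte markers it was 4.37 to 5.0 in CD157+CD200+ ECs and 4.40 to 5.14 in CD157-CD200+ ECs, against 4.36 to 5.37 in CD157-CD200- ECs, which overlapped, with Cd3g and Ms4a1 above background on none of the 9 arrays. Stellate and mesenchymal markers summed to 18.7 to 26.9 in CD157+CD200+ ECs and 17.9 to 30.9 in CD157-CD200+ ECs, against 5.62 to 5.80 in CD157-CD200- ECs, with 3 higher and 2 lower of 9 tested in each. Rgs5 had mean levels of 3.97 and 3.91 in these CD200+ subsets, against 0.13 in CD157-CD200- ECs. Dcn, Lrat and Col1a1 had lower means in both CD200+ subsets, Lrat with -4.65 and -3.55 against -1.60. Cholangiocyte markers summed to 6.26 to 8.71 in CD157+CD200+ ECs and 3.72 to 5.58 in CD157-CD200+ ECs, against 4.66 to 6.16 in CD157-CD200- ECs. The part of these cells in the members' differences was not tested.

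Among cell cycle genes that are no members, 24 of 40 other mitosis genes were tested in the subsets, and 0 were higher and 8 lower in CD157+CD200+ ECs (median difference -0.33), and 1 was higher and 8 were lower in CD157-CD200+ ECs (median -0.87), against CD157-CD200- ECs (limma, with 1 and 10, and with 1 and 12, at an unadjusted p under 0.05). The lowest adjusted p-values belonged to the chromosomal passenger Cdca8 (-2.18, adjusted p = 0.00209, and -2.52, adjusted p = 0.00103), the kinetochore protein Spc25 (-1.35, adjusted p = 0.0131, and -1.87, adjusted p = 0.00251) and Cks2 (-1.20, adjusted p = 0.0243, and -1.72, adjusted p = 0.00436). Of 31 other replication genes tested, 2 were higher and 4 lower in each comparison. In CD157+CD200+ ECs the histone chaperones Chaf1b and Asf1b had 1.27 (adjusted p = 0.00163) and -2.16 (adjusted p = 0.00401), and Pola2 had -1.83 (adjusted p = 0.00343). In CD157-CD200+ ECs Rpa1 had 1.32 (adjusted p = 0.000246), the kinase activator Dbf4 -1.38 (adjusted p = 0.00322) and Chaf1b 1.07 (adjusted p = 0.00551). Of 13 other inhibitors, pocket proteins and MuvB subunits 1 was higher and 1 lower in each comparison, namely Cdkn2d, which encodes p19INK4D (1.28, adjusted p = 0.0046, in CD157+CD200+ ECs), and Cdkn1c, which encodes p57 (-0.92, adjusted p = 0.00318).

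Of 19 other cyclins and CDKs 1 was higher and 1 lower in CD157+CD200+ ECs, with Cdk14 at 0.89 (adjusted p = 0.0199) and Cdk18 at -1.90 (adjusted p = 0.000316), and 2 were higher and 1 lower in CD157-CD200+ ECs, with Cdk14 at 1.41, Cdk19 at 1.16 and Cdk18 at -1.91. Of 18 p53 and checkpoint genes 2 were higher and 2 lower in CD157+CD200+ ECs, and 3 were lower in CD157-CD200+ ECs. The p53 target kinase Plk2 had -1.16 (adjusted p = 0.00466) and -0.97, and the stress-response gene Sesn1 -0.90 (adjusted p = 0.0056) and -1.08. Among growth arrest factors the antiproliferative gene Btg1 had 1.61 (adjusted p = 0.000118) in CD157+CD200+ and 0.72 in CD157-CD200+ ECs, and it was the 1 gene called of all these lists between CD157+CD200+ and CD157-CD200+ ECs (0.89, adjusted p = 0.0393). Txnip, a thioredoxin inhibitor, had -1.07 (adjusted p = 0.00112) and -0.63, and the related antiproliferative gene Btg2 had 1.07 (adjusted p = 0.0274) in CD157+CD200+ ECs.

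EC-SP against EC-MP cells and CD157+CD200+ against CD157-CD200- ECs each set a population high in Bst1 against one lower in it, without shared arrays. They differ in Cd200, which EC-MP cells still held at 0.38 to 1.15, and in other markers. The summed level of 10 arterial or large-vessel markers was 249 to 319 in EC-SP and 123 to 221 in EC-MP cells. It was 501 to 540 in CD157+CD200+ and 34.5 to 52.9 in CD157-CD200- ECs. In each comparison 12 members were called. Of the 39 members tested in both, 12 and 9 were called, and Rrm2, Cdk4 and Rgcc were called in both, 25.0% and 33.3% of these lists. Of all 22610 features tested in both, 1627 were called in both, 43.4% and 48.4% of the lists, and 1517 of these had the same direction. Rrm2 was higher in EC-SP cells and lower in CD157+CD200+ ECs, Cdk4 lower in both and Rgcc higher in both. The difference between EC-SP minus EC-MP and CD157+CD200+ minus CD157-CD200- was then tested in 1 fit of all 15 arrays. Of 46 members tested 12 were higher and 0 lower (limma, with 24 and 0 at an unadjusted p under 0.05), where 2.07% and 2.97% of all 25062 features were higher and lower, and the medians were 0.95 over the members and 0.00 over all features. Of the 33 members above background on all arrays 10 were higher and 0 lower (median 0.66), where 519 of 19432 features were higher and 554 lower. Without CD157-CD200- replicate 3, 9 of the 46 were higher (median 0.89). The set with EC-SP and EC-MP cells was scanned on another scanner with another software version. A log2 shift of a probe that is constant within a set cancels in each difference. Other effects of scanner or software need not cancel, and their part was not tested.

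**Figure D4:**
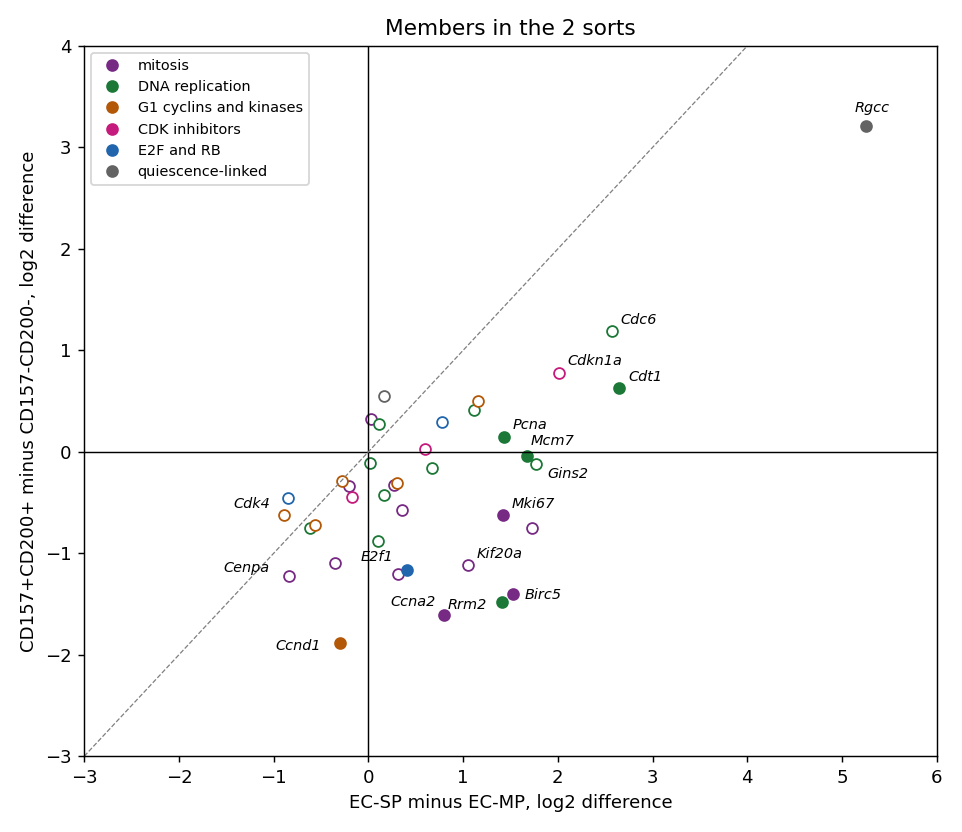
Difference in level for EC-SP minus EC-MP (horizontal axis) and CD157+CD200+ minus CD157-CD200- (vertical axis), log2, 1 point per member tested in both, coloured by role, filled where the difference of the differences passed, with a dashed line of equal values. Rgcc lies at 5.25 and 3.21, and Rrm2 lies at 1.41 and -1.48.

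By role these 12 were 4 of 17 mitosis members, 5 of 14 DNA replication members, and Ccnd1, E2f1 and Rgcc. Of those above background on all arrays, 3 of 8 mitosis and 4 of 12 DNA replication members were higher. Rrm2 had a difference of the differences of 2.89 (adjusted p = 0.000573), Ccna2 of 2.41 (adjusted p = 0.0101), Rgcc of 2.04 (adjusted p = 0.00919) and Cdt1 of 2.02 (adjusted p = 0.00913). Mcm7 followed with 1.71 (adjusted p = 0.0157) and Ccnd1 with 1.58 (adjusted p = 0.00799). These 6 calls held in all fits that left out 1 array, and Ccna2 was above background on 1 EC-MP array. Tk1 and Kif11 passed the filter through CD157-CD200- ECs alone, so no size is given for them. Tk1 was above background on 2 EC-SP arrays, 1 EC-MP array and 1 CD157+CD200+ array, and its call (adjusted p = 0.0155) ended with normexp (adjusted p = 0.0531). Kif11 was above background on 1 EC-SP, 0 EC-MP and 1 CD157+CD200+ arrays, and its call (adjusted p = 0.0326) ended in 8 of 15 fits that left out 1 array and with normexp. The others depended on single arrays. Mki67 had 2.04 (adjusted p = 0.0236, lost in 3 of 15 such fits), Birc5 2.93 (adjusted p = 0.041, lost in 12), Pcna 1.28 (adjusted p = 0.0496, lost in 13) and E2f1 1.57 (adjusted p = 0.0185, lost in 1, without CD157+CD200+ replicate 1), with adjusted p of up to 0.0628, 0.0918, 0.124 and 0.0526. With the block 21 members were called, all of them higher. Cdk4, lower in both sorts, had a difference of the differences of -0.28 (adjusted p = 0.804).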

How the data were processed

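The deposited scanner files hold intensity values of 15 one-colour Agilent arrays, made by the authors with Agilent Feature Extraction, in version 10.10.1.1 (EC-SP, EC-MP) and 11.5.1.1 (the subsets), per the file headers. RNA was amplified before Cy3 labelling, per the labels' protocols. The processed signal, background-corrected per the file headers, was taken as log2 minus the log2 75th percentile of the array. Gene names came from the accession of each probe through RefSeq. The deposited series table holds the authors' scaled intensity, which is the same signal multiplied by 1 constant per array.

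Control and outlier spots were left out, and spots of a probe averaged. The probe with the highest mean signal stood for a gene with several probes (11 members). Fits used limma 3.58.1 in R 4.3.3 (lmFit, eBayes, two-sided moderated tests), separately for 6 arrays (EC-SP, EC-MP), the 9 subset arrays, and all 15 for the difference of the differences, with Benjamini-Hochberg adjustment over all features and a threshold of 0.05. Promoter letters were counted in Python 3.11.15. The fits were tested on simulated data. The 54 members and all other lists were chosen with earlier results of these data known. Members called in any pairwise comparison are given with their arrays, Mki67, Top2a, Cdkn1a, Cdkn1b, Rgcc and G0s2 whatever their result, and of other lists up to 3 called genes of lowest adjusted p per comparison. The number of arrays limits the precision.

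Arrays with the same replicate number shared a slide and a scan date (6 slides), and their deviations from the group means correlated at 0.27 to 0.33 (3 pairs) and 0.27 to 0.63 (9 pairs), so the numbers pair the samples and were used as a block in an alternative. Other alternatives were normexp background correction, quantile normalization, the series table, other filters, the mean of a gene's probes, and leaving out each array. No column of per-sample values was left unused.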

Additional observations from a re-analysis of the deposited data

How the results depend on the processing

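Of 1131 values recomputed for 70 named results, 967 kept direction and side of the threshold, 141 no longer passed, 8 newly passed and 15 changed sign, 0 of them of called results. With the replicate block the features called numbered 6938 for CD157+CD200+ against CD157-CD200- ECs, 727 for CD157+CD200+ against CD157-CD200+ ECs, 5282 for CD157-CD200+ against CD157-CD200- ECs, 6350 in the F test and 3192 for the difference of the differences, and the members called 21, 2, 17, 18 and 21. For EC-SP against EC-MP cells the block called 5255 features and 17 members. The block ended no member call. Slide and scan date coincide with the replicate number, so no separate slide block was run. With no filter on dim probes 2279 features were called between EC-SP and EC-MP cells. Between CD157+CD200+ and CD157-CD200+ ECs 160 features were called with a filter on every array. In that comparison 2 members were called with normexp, 2 with quantile normalization and 0 with no filter (limma, 7 at an unadjusted p under 0.05). The cause of these shifts was not tested, beyond the change in the features tested. Leaving out each array in turn gave 101 to 253 features called between CD157+CD200+ and CD157-CD200+ ECs, and 0 to 3 members, with 5 to 11 at an unadjusted p under 0.05 in the 7 fits that called 0 (limma). It gave 7 to 11 members for CD157+CD200+ and 9 to 16 for CD157-CD200+ against CD157-CD200- ECs, and 7 to 13 for the difference of the differences, the lowest of these 3 without CD157+CD200+ replicate 1, CD157-CD200+ replicate 3 and CD157+CD200+ replicate 1. With no filter the calls of Cdk4, Cdkn1a, Mcm4 and Mki67 ended between EC-SP and EC-MP cells, those of Cdk4, Kif20a, Tk1 and Tpx2 in CD157+CD200+ ECs, and those of Ccnb2, Cdkn2a, Mcm5, Mki67 and Nusap1 in CD157-CD200+ ECs. Normexp ended Kif20a and Tk1 in CD157+CD200+ ECs and Ccnb2 and Nusap1 in CD157-CD200+ ECs, and the series table ended Ccnb2 there. For the difference of the differences normexp ended Kif11 and Tk1, the series table and quantile normalization each ended Pcna, and no filter ended Birc5, Kif11, Mki67 and Pcna. In the F test normexp ended Mcm5 and Tk1, the series table Mcm5, and no filter Cdkn2a, E2f1, Mcm5 and Tpx2. The mean of a gene's probes ended Cdk4 and Cdkn1a between EC-SP and EC-MP cells and newly called Ccne1, as higher, there. Against CD157-CD200- ECs it newly called Birc5 in CD157+CD200+ ECs and Cdk1 in CD157-CD200+ ECs, both as lower. In CD157-CD200+ ECs the Cdk1 probe used gave -0.43, and its other probes, not above background on all arrays there, gave -2.16 and -0.96. Signs turned only for differences that did not pass in the fits reported, of which Cdkn1a in CD157+CD200+ ECs (0.78) passed with the block and with normexp. The mean of both Cdkn1a probes gave -0.48 in CD157+CD200+ ECs and -0.62 in CD157-CD200+ ECs against CD157-CD200- ECs. Leaving out 1 array in turn, Top2a ran from -0.59 to 0.08 in EC-SP against EC-MP cells and from -0.27 to 0.03 in CD157-CD200+ against CD157-CD200- ECs. G0s2 ran from -0.01 to 0.39 in EC-SP against EC-MP cells and from -0.22 to 0.4 in CD157+CD200+ against CD157-CD200+ ECs. Cdkn1b ran from -0.24 to 0.3 in CD157+CD200+ and from -0.36 to 0.16 in CD157-CD200+ against CD157-CD200- ECs, and from -0.13 to 0.39 in CD157+CD200+ against CD157-CD200+ ECs. With 3 arrays a group, and many mitosis members near background, small differences cannot be measured.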
